A study of Mus musculus with 6 samples.

Results

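Tcf7, Lef1, Bach2, Foxo1, Foxp1, Satb1, Bcl6, Myb and Ets1 encode transcription factors known for naive and stem-like T cells. They were chosen by gene symbol, with earlier results of these data known. They are 9 of the 23284 genes with counts, and all 9 had enough reads to be tested. RNA was sequenced from lymph node cells of C3H/HeJ mice, an inbred strain in which the autoimmune hair loss disease alopecia areata is modelled. The cells were sorted into 3 NKG2D+ and 3 NKG2D- libraries, numbered by mouse, and both gates took CD3+ CD8+ cells positive for CD44 and CXCR3, markers found on CD8 T cells that have met antigen. NKG2D is an activating receptor encoded by Klrk1. The sources used here do not give disease state, age, sex, treatment or any pooling of animals.

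Naive CD8 T cells keep a set of transcription factors that hold back effector programmes, and memory cells able to renew themselves keep much of it. TCF-1, the product of Tcf7, and its relative LEF-1 bind the same DNA letters. FOXO1 drives genes for survival and for homing to lymph nodes and is shut out of the nucleus by AKT. BACH2 and BCL6 repress effector genes, among them Prdm1, which encodes the effector regulator Blimp-1, and Blimp-1 in turn represses Bcl6.

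Each library held 41168816 to 89184611 gene counts. Klrk1 had 409, 312 and 342 CPM in NKG2D+ libraries 1, 2 and 3 against 34.5, 37.1 and 36.1 CPM in the NKG2D- libraries, 9.86-fold higher (log2 fold change 3.30, SE 0.12, edgeR quasi-likelihood adjusted p = 0.000185), and this receptor gene of the gate checks the labels. With a threshold of 0.05 on the adjusted p, edgeR called 261 of 12951 tested genes, 214 higher and 47 lower in the NKG2D+ group. CPM are counts-per-million values scaled by the trimmed mean of M-values (TMM), log2 fold changes are NKG2D+ over NKG2D-, and values per library are given in the order 1, 2 and 3, NKG2D+ first.

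None of the 9 transcription factor genes passed edgeR's adjusted threshold, although for 6 of them the highest NKG2D+ library was still below the lowest NKG2D- library. Lef1, Myb, Bach2, Tcf7, Satb1 and Foxp1 were these 6, with fitted log2 fold changes of -1.0 to -0.31. Foxo1 and Ets1 had negative log2 fold changes with overlapping libraries, and Bcl6 had a positive log2 fold change, also with overlap. By the same threshold edgeR called 2.02% of all tested genes, 0.363% lower and 1.65% higher. Groups without overlap were found in 14.1% of all tested genes with NKG2D+ below and in 15.1% with NKG2D+ above. Negative log2 fold changes made up 52.8% of all tested genes and 8 of these 9. Without adjustment, 6 of the 9 genes had p under 0.05, all with negative log2 fold changes, against 8.62% of all tested genes with such a p in that direction and 12.5% in the other. DESeq2, with group as its only term, called 5 of the 9 lower (Tcf7, Lef1, Bach2, Foxp1 and Myb) and 0 higher. Over all tested genes it called 11.1%, 3.41% lower and 7.73% higher. The median log2 fold change of the 9 was -0.53, beside -0.01 over all tested genes.

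**Figure D1:**
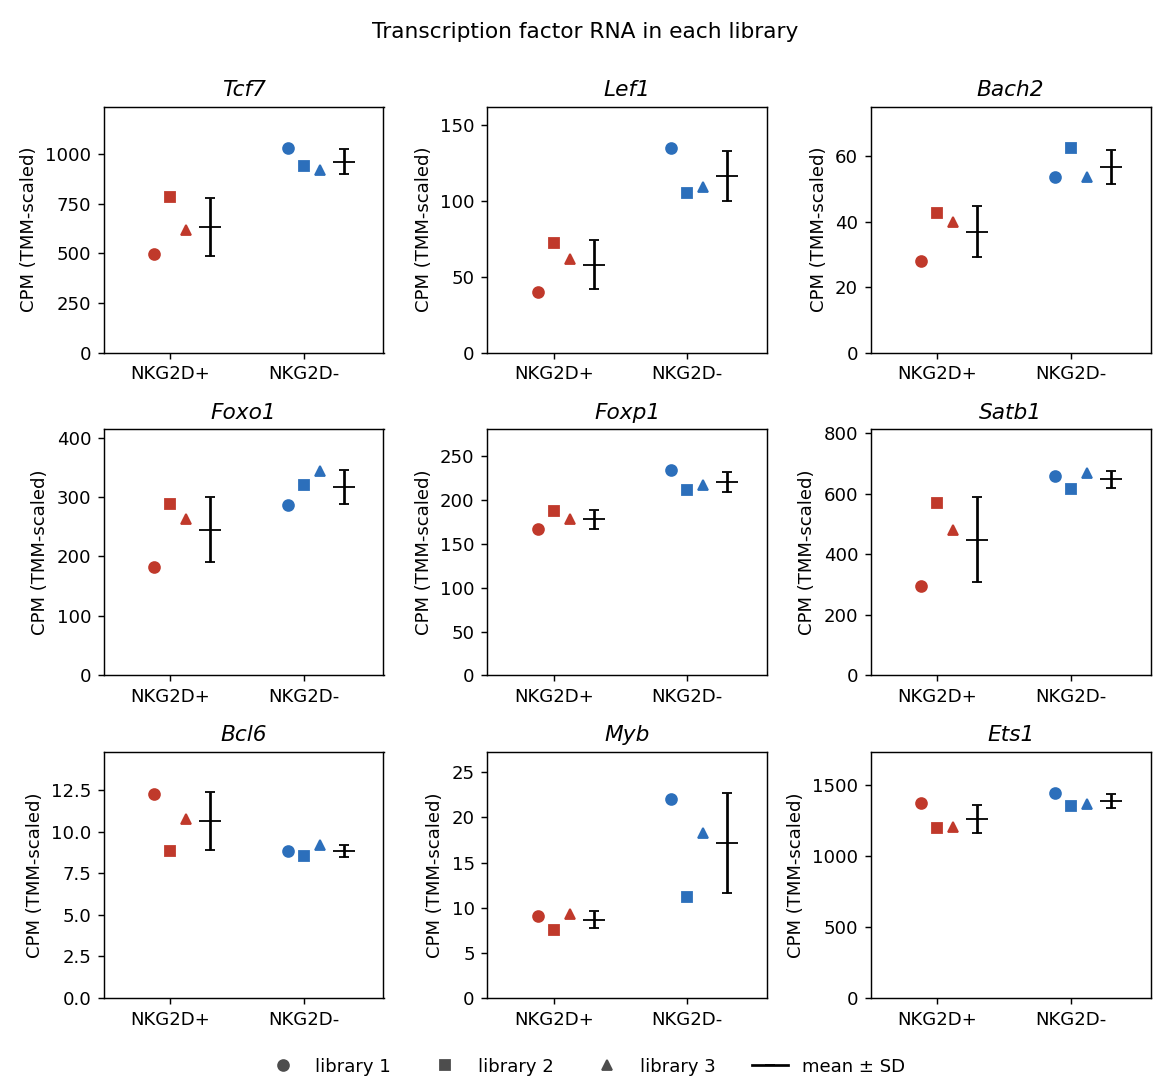
TMM-scaled CPM of each transcription factor gene (vertical axes from 0) in the 3 NKG2D+ (red) and 3 NKG2D- (blue) libraries. Marker shapes give the library number, and the black bars are the mean ± SD of 3 libraries. For 6 genes all red points lie under all blue points, while Foxo1, Bcl6 and Ets1 overlap.

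Tcf7 and Lef1 encode the TCF/LEF pair. Tcf7 stood at 498, 786 and 617 CPM in NKG2D+ libraries 1, 2 and 3. Its NKG2D- libraries, in the same order, held 1032, 938 and 918 CPM. The groups did not overlap, and NKG2D+ library 1 was the lowest. The means were 634 ± 145 and 963 ± 60.7 CPM (SD, n = 3). Its log2 fold change was -0.60 (SE 0.16, edgeR adjusted p = 0.105), which puts the NKG2D+ level at 65.9% of the NKG2D- level.

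Lef1 had 40.1, 72 and 61.7 CPM in the NKG2D+ libraries against 135, 105 and 109 CPM in the NKG2D- ones. Again NKG2D+ library 1 was the lowest and no NKG2D+ library reached the NKG2D- range. The means were 57.9 ± 16.3 and 116 ± 16.3 CPM (SD, n = 3), and NKG2D- cells held 2.01 times the NKG2D+ level (log2 fold change -1.0, SE 0.22, edgeR adjusted p = 0.073). Among all tested genes, 1.15% had a lower log2 fold change than Lef1 and 3.27% a lower one than Tcf7.

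Whether these genes passed the threshold depended on the libraries and on the tool. Without NKG2D+ library 1 Lef1 had a log2 fold change of -0.80 (edgeR adjusted p = 0.0189), and without NKG2D+ library 2 one of -1.19 (adjusted p = 0.0226). Without both libraries numbered 1 it was -0.68 (edgeR adjusted p = 0.0309). Leaving out NKG2D+ library 2 took Tcf7 to -0.79 (edgeR adjusted p = 0.0106). In the other fits with libraries left out, edgeR's adjusted p was 0.0558 to 0.611 for Lef1 and 0.0553 to 0.66 for Tcf7. Over all tested genes, edgeR called 0.905% lower without NKG2D+ library 1 and 3.1% lower when library 2 of that group was left out. Without both libraries numbered 1 it called 51 of 13100 lower. DESeq2 on all libraries gave an adjusted p of 0.000127 for Lef1 and 0.00619 for Tcf7, and of 0.00807, 0.00578 and 0.00232 for Bach2, Foxp1 and Myb. With the replicate number as a block, edgeR's adjusted p was 0.126 for Lef1 and 0.137 for Tcf7. For Bach2, Foxp1 and Myb it was then 0.0946, 0.126 and 0.0888.

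Genes of the repressors BACH2 and BCL6 had log2 fold changes of opposite sign, and neither passed edgeR's threshold. Bach2 had 28, 42.6 and 40 CPM against 53.6, 62.5 and 53.6 CPM, with no overlap (log2 fold change -0.62, SE 0.16, edgeR adjusted p = 0.0987). It passed edgeR's threshold when NKG2D+ library 1 was left out (-0.45, adjusted p = 0.0398) and when library 2 of that group was (-0.73, adjusted p = 0.0407). The other fits with libraries left out gave Bach2 edgeR adjusted p-values of 0.0642 to 0.623. Bcl6 was low in every library, at 12.3, 8.86 and 10.8 against 8.84, 8.52 and 9.2 CPM. NKG2D+ library 2 lay inside the NKG2D- range, and the log2 fold change was 0.26 (SE 0.14, edgeR adjusted p = 0.353). Bcl6 rested on 351 to 830 counts a library.

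Prdm1, the target that both proteins repress, rose in NKG2D+ cells, with 48.6, 18.6 and 32.7 CPM against 7.43, 10.1 and 7.31 CPM in libraries 1, 2 and 3 (log2 fold change 2.01, edgeR adjusted p = 0.0443, and 0.104 with the replicate number as a block). Ratios within a library need no scaling between libraries. Bach2 had 0.576, 2.29 and 1.22 counts for each Prdm1 count in NKG2D+ libraries and 7.21, 6.2 and 7.33 in NKG2D- libraries. The mean log2 ratio of Bach2 to Prdm1 was 0.23 ± 1.00 in NKG2D+ cells against 2.79 ± 0.13 (SD, n = 3, two-sided exact permutation p = 0.1, the lowest that 3 against 3 allows). For Bcl6 to Prdm1 it was -1.55 ± 0.46 against 0.11 ± 0.31 (SD, n = 3, exact permutation p = 0.1). In both ratios every NKG2D+ library lay below every NKG2D- library. For Bach2 to Prdm1 this was fixed by the levels above, since neither gene overlapped between groups and their directions were opposite. Its permutation p is therefore no further support. Prdm1 is the denominator of both ratios, and its log2 fold change of 2.01 stands beside -0.62 for Bach2 and 0.26 for Bcl6. The lower ratio of Bcl6 to Prdm1 therefore does not mean less Bcl6. NKG2D+ library 1 was the lowest and library 2 the highest of its group.

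**Figure D2:**
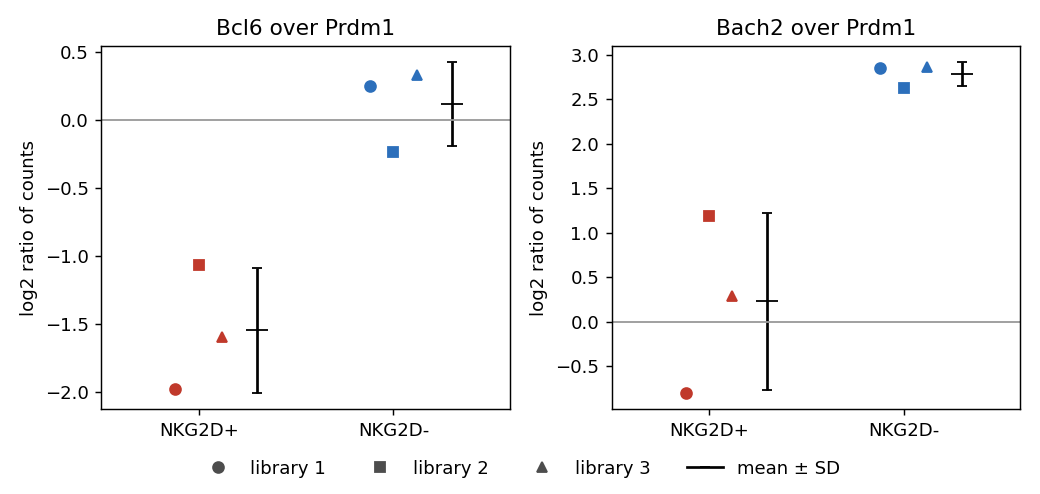
Log2 ratio of Bcl6 counts (left) and Bach2 counts (right) to Prdm1 counts in each library (red NKG2D+, blue NKG2D-; marker shape gives the library number; black bars are the mean ± SD of 3 libraries). The mean ratio of Bach2 to Prdm1 is 0.23 in NKG2D+ and 2.79 in NKG2D- cells on the log2 scale.

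Foxo1 and Foxp1 are the forkhead genes of the set. FOXP1 is known to hold T cells in quiescence. Foxp1 had 167, 188 and 179 CPM against 234, 212 and 217 CPM, a small difference with no overlap (log2 fold change -0.31, SE 0.07, edgeR adjusted p = 0.0841). It passed without NKG2D+ library 2 (-0.35, edgeR adjusted p = 0.0426). The other fits with libraries left out gave Foxp1 edgeR adjusted p-values of 0.08 to 0.658. Foxo1 had 183, 288 and 263 CPM in the sorted NKG2D+ cells against 286, 320 and 343 CPM. NKG2D+ library 2 was just above NKG2D- library 1, so the groups overlapped, with a log2 fold change of -0.37 (SE 0.17, edgeR adjusted p = 0.268).

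Satb1 encodes a chromatin organiser of developing and naive T cells. Its levels were 294, 569 and 481 CPM in NKG2D+ cells against 658, 615 and 669 CPM, with no overlap. Library 1 was far below the other NKG2D+ libraries, and the log2 fold change of -0.53 had an SE of 0.22 (edgeR adjusted p = 0.232). None of the 15 alternatives brought Satb1, Foxo1, Bcl6 or Ets1 past the threshold.

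Myb encodes a factor needed for self-renewing memory cells. Myb had 9.06, 7.56 and 9.33 CPM in NKG2D+ cells against 22, 11.2 and 18.3 CPM, again with no overlap. Here the spread lay in the NKG2D- cells, whose highest library had 1.96 times the lowest, against 1.23 times in NKG2D+ cells. The log2 fold change was -0.99 (SE 0.24, edgeR adjusted p = 0.0882). Without both libraries numbered 2 it was -1.12 (edgeR adjusted p = 0.0298), in a fit that called 33 of 13089 genes lower. The other fits with libraries left out gave Myb edgeR adjusted p-values of 0.0775 to 0.656. Ets1, which encodes a factor of T-cell development and survival, had 1372, 1200 and 1208 CPM against 1444, 1353 and 1366 CPM. NKG2D+ library 1 lay within the NKG2D- range, with a log2 fold change of -0.14 (SE 0.09, edgeR adjusted p = 0.415).

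Same-numbered libraries gave the same direction for every gene. In all 3 pairs the NKG2D+ library was the lower for the 8 genes other than Bcl6, a pattern found in 29.1% of all tested genes, and the higher for Bcl6. Pair 1 had the largest difference for Lef1 (log2 ratio -1.75, against -0.54 and -0.82 in pairs 2 and 3). It also had the largest for Satb1 (-1.16, against -0.11 and -0.48) and for Tcf7 (-1.05, against -0.25 and -0.57). Ets1 had its smallest difference in pair 1, at -0.07.

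**Figure D3:**
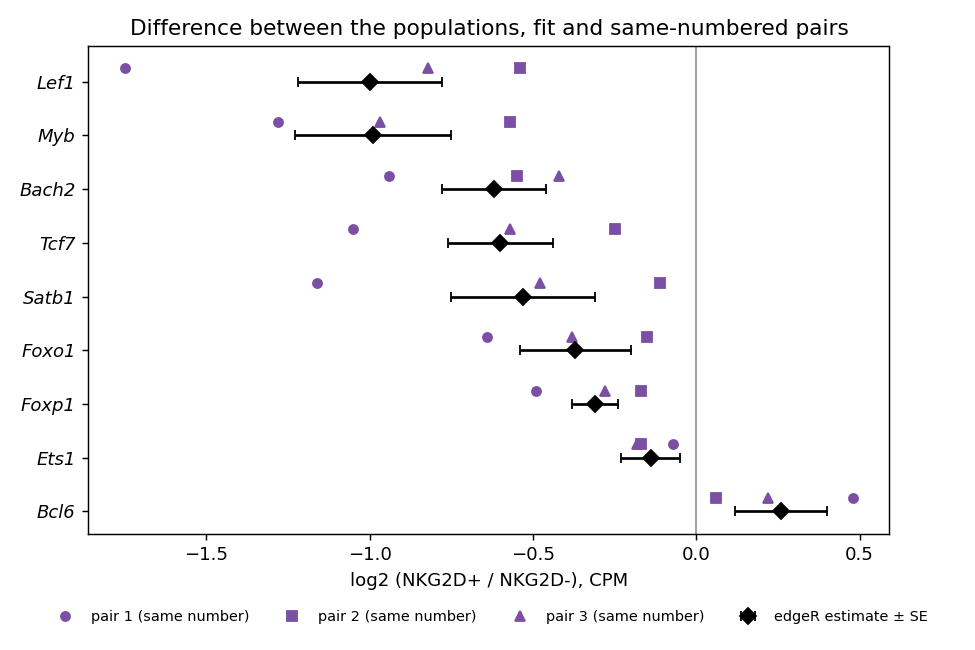
Log2 fold change of NKG2D+ over NKG2D- for each gene, as fitted by edgeR (black diamonds, bars ± SE) and as the log2 ratio of CPM in each same-numbered pair (purple, shape gives the pair). Bcl6 alone lies right of 0, and pair 1 is the farthest from 0 for every gene but Ets1.

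NKG2D+ library 1 was the lowest of its group for 6 of the 9 genes (Tcf7, Lef1, Bach2, Foxo1, Foxp1 and Satb1), beside 41.5% of all tested genes. The highest NKG2D+ library had a median of 1.52 times the lowest over the 9 genes, beside 1.26 times over all tested genes. In NKG2D- cells these medians were 1.12 and 1.17. As a description over 6 libraries that come in pairs from 3 mice, the log2 CPM of each gene was set against the mean of the other 8. Pearson's r was 0.99 for Lef1, 0.98 for Foxp1 and 0.95 for Tcf7, 0.72 for Myb, 0.42 for Ets1 and -0.85 for Bcl6. Foxo1 had 0.81, and Bach2 and Satb1 had 0.89 each.

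The 5 other genes most like the mean profile of the 9, out of 8491 with a mean of at least 10 CPM, were Thada, Dkc1, Polr1c, Il6ra and Tagap1, with Pearson's r of 0.9994, 0.9980, 0.9978, 0.9977 and 0.9962 over the 6 libraries. Dkc1 encodes dyskerin, a protein of telomerase and ribosomal RNA modification, Polr1c a subunit shared by RNA polymerases, and Il6ra a chain of the interleukin 6 receptor. Il6ra had 83.1, 148 and 131 CPM against 265, 209 and 243 CPM (log2 fold change -0.99, edgeR adjusted p = 0.0719). None of the 5 passed the threshold.

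Levels of different genes can be set side by side only per transcript length. Per kilobase of exon, NKG2D- cells held 367 ± 23.1 CPM of Tcf7 and 273 ± 9.69 CPM of Ets1. The next levels per kilobase were 56.4 ± 2.47 CPM of Satb1, 36.5 ± 3.31 of Foxo1, 33.2 ± 4.64 of Lef1 and 28.1 ± 1.45 of Foxp1. Bach2 with 6.37 ± 0.577, Myb with 4.55 ± 1.46 and Bcl6 with 2.51 ± 0.0967 CPM per kilobase closed the order (SD, n = 3). Foxo1 and Lef1 differed there by less than the spread of Lef1. In NKG2D+ cells Ets1 came before Tcf7, at 248 ± 19.2 and 241 ± 55.1 CPM per kilobase, a difference within the spread of Tcf7. Foxp1, at 22.7 ± 1.36, stood above Lef1, at 16.5 ± 4.64, and Bcl6, at 3.02 ± 0.492, above Myb, at 2.29 ± 0.252 CPM per kilobase (SD, n = 3). Satb1 (39 ± 12.2) and Foxo1 (28.2 ± 6.31) differed in NKG2D+ cells by less than the spread of Satb1.

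Sequence before the start sites is shown for Lef1, Foxp1 and Tcf7, the 3 genes whose profile over the libraries was closest to that of the others. It comes from RefSeq (GRCm38.p6, not the mm9 build of the counts), which had 19 start windows for 8 of the 9 genes and none for Ets1. Counts per gene symbol do not separate these starts. Capitals mark matches to motifs of the transcription factors themselves.
Lef1 (chr3:131110197-131110296, + strand, bases 100 to 1 before its first start): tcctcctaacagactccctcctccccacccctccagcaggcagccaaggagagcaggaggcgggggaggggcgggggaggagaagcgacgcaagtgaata
Tcf7 (chr11:52282596-52282695, - strand, bases 100 to 1 before its second start): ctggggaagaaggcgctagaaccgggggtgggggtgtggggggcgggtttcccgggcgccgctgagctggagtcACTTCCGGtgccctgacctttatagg
Foxp1 (chr6:99266605-99266730, - strand, bases 215 to 90 before an internal start): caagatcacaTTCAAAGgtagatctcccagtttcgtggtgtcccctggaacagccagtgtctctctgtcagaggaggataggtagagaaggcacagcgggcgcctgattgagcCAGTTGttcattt
The Lef1 and Tcf7 stretches lie directly before a transcript start, and the Foxp1 stretch lies inside the gene before a later one.

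Both strands of the 250 bases before each start were searched. The ETS letters CCGGAAGT were found in 1 of the 19 windows, that of Tcf7 (ACTTCCGG on the strand shown, 26 bases before the start), and in 2.88% of all windows of this length. The TCF/LEF letters CTTTGAA or CTTTGAT, which TCF-1 and LEF-1 share, were found in 1 window, that of Foxp1 (TTCAAAG, 205 bases before the start), and in 7.48% of all windows. MYB letters, CCGTTG or CAGTTG, were found in 2 Foxp1 windows and in 14.8% of all. No window held the forkhead letters GTAAACA (3.17% of all windows) or the AP-1 letters TGAGTCA that BACH2 can bind (4.46%). A match describes the letters and not a bound site.

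Target genes of FOXO1 were mixed in direction, near the split of all tested genes. Of these, 52.8% had negative log2 fold changes, with a median of -0.01. An unadjusted p under 0.05 was found for 2731 of 12951, and DESeq2 called 3.41% lower and 7.73% higher. Of 13 tested targets edgeR called 0 (5 had an unadjusted p under 0.05, and DESeq2 called 4, all lower), and 7 had negative and 6 positive log2 fold changes with a median of -0.02. Ccr7, a lymph node homing receptor, had the smallest p. Its levels were 129, 214 and 165 CPM against 309, 290 and 284 CPM (log2 fold change -0.80, SE 0.17, edgeR adjusted p = 0.0691). S1pr1 and Il7r were chosen after their values were seen. S1pr1, an egress receptor gene, stood at 166, 308 and 249 against 389, 379 and 375 CPM (log2 fold change -0.66, edgeR adjusted p = 0.137). Neither Ccr7 nor S1pr1 overlapped between groups. Il7r, the survival receptor gene that FOXO1 drives, pointed the other way, at 1305, 815 and 910 against 917, 655 and 698 CPM with overlap (log2 fold change 0.42, edgeR adjusted p = 0.305). Without NKG2D+ library 1 edgeR called 3 targets lower, and without NKG2D+ library 2 it called 4 lower and 1 higher. Over all tested genes these fits called 0.905% and 3.1% lower, and the second called 904 of 13178 higher.

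Among other genes of naive and stem-like memory cells, edgeR called 5 of 12 tested lower in the NKG2D+ group and 0 higher. It called 0.363% of all tested genes lower and 1.65% higher. The list was chosen with earlier results of these data known, so these counts are not independent support. All 12 had negative log2 fold changes, beside 52.8% of all tested genes, with a median of -0.82. Dapl1, a gene of naive T cells, had 25.5 ± 2.55 CPM in NKG2D+ cells (SD, n = 3) and fell by 1.23 in log2 terms (edgeR adjusted p = 0.00714). Igfbp4, whose product binds insulin-like growth factors, fell by 1.87 (edgeR adjusted p = 0.0153). Actn1, an alpha-actinin gene, fell by 1.31 and Cxcr5, a follicle homing receptor, by 0.66. Id3, the fifth, was named after its values were seen; it encodes an inhibitor of E proteins and fell by 1.09 (adjusted p = 0.0498 by edgeR). With the replicate number as a block 3 of the 12 passed, and edgeR's adjusted p was then 0.0539 for Actn1 and 0.0518 for Cxcr5. That fit called 11 of 12951 tested genes lower. Leaving out NKG2D+ library 1, 2 or 3 took the count to 8, 9 or 1, and leaving out NKG2D- library 1, 2 or 3 to 2, 1 or 2. Over all tested genes, 0.905% were called lower without NKG2D+ library 1 and 3.1% without library 2 of that group. Without NKG2D+ library 3, 4 of 13074 tested genes were called lower. Without NKG2D- library 1, 2 or 3 the calls lower over all tested genes were 6, 4 or 4. Leaving out both libraries numbered 3 took the count of the 12 to 0, and that of all tested genes to 0 as well.

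Cofactors and family relatives of the 9 had no call by edgeR. Over all tested genes edgeR called 2.02% and DESeq2 11.1%, and 2731 of 12951 had an unadjusted p under 0.05. Of 20 tested cofactor genes, such as the Groucho repressors, beta-catenin and the BCL6 corepressors, edgeR called 0 (2 had an unadjusted p under 0.05, and DESeq2 called 1), with a median log2 fold change of -0.03. Nacc1, a corepressor gene, had the smallest p, at 125 ± 3.18 against 110 ± 2.03 CPM (SD, n = 3, edgeR adjusted p = 0.141). Of 22 tested family relatives edgeR called 0 (7 had an unadjusted p under 0.05, and DESeq2 called 5), with a median of 0.05 and a range of -1.81 to 1.47. The smallest p there was that of Foxp3, the regulatory T-cell factor, at 7.27, 2.45 and 4.94 CPM against 20.8, 16.2 and 14.4 CPM (log2 fold change -1.81, edgeR adjusted p = 0.0687). Foxp4 and Mybl2, chosen after their values were seen, are relatives of Foxp1 and Myb and had positive log2 fold changes, of 0.40 and 0.74 (edgeR adjusted p = 0.0841 and 0.0752).

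Genes that act on these factors through AKT, 14-3-3 proteins or the Wnt pathway had the narrowest range of log2 fold changes among the 6 related lists, from -0.17 to 0.48. EdgeR called 0 of 18 tested (1 had an unadjusted p under 0.05, and DESeq2 called 0), beside 2.02% of all tested genes by edgeR and 11.1% by DESeq2. Ywhaq, a 14-3-3 gene, had the smallest p, at 247 ± 22.3 against 212 ± 13 CPM (SD, n = 3, edgeR adjusted p = 0.213). Of 10 transcription factor genes of effector differentiation, 4 rose in NKG2D+ cells by edgeR (Zeb2, Bhlhe40, Id2 and Prdm1) and 0 fell. Over all tested genes 1.65% were called higher and 0.363% lower. This list too was chosen with earlier results of these data known. DESeq2 called 7 of the 10 higher, beside 7.73% of all tested genes. With the replicate number as a block, and by limma-voom, 0 of the 10 passed. These fits called 57 and 60 of 12951 genes higher. None of the 10 passed either without NKG2D+ library 3, without any 1 of the NKG2D- libraries or without both libraries numbered 3. Over all tested genes those fits called only 0 to 15 higher.

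**Figure D4:**
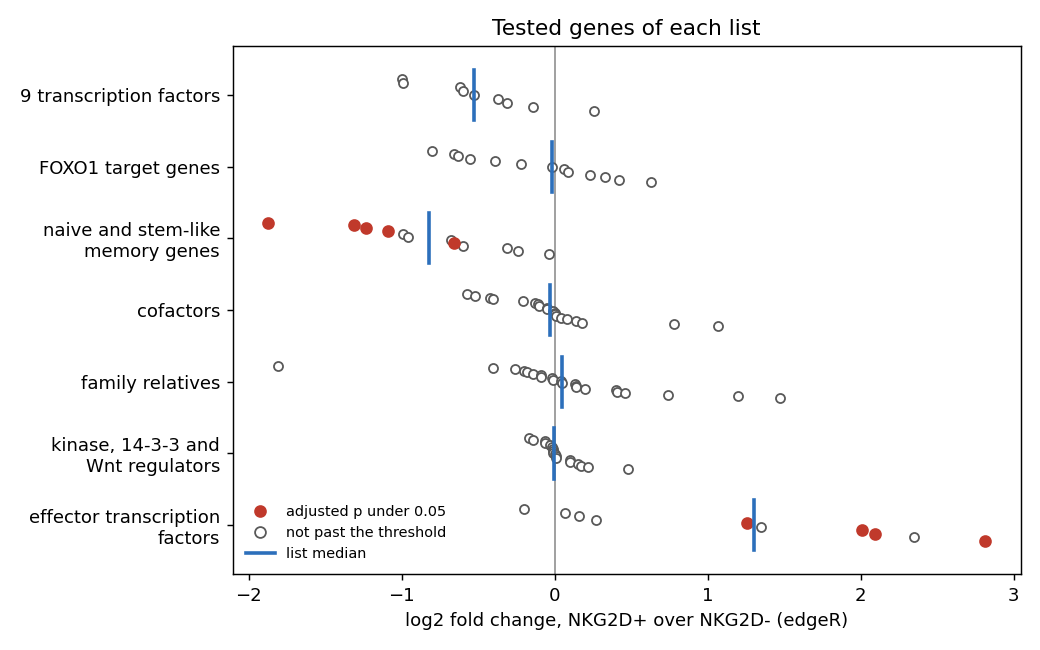
Log2 fold change (edgeR, NKG2D+ over NKG2D-) of every tested gene in the 9 transcription factors and 6 related lists, with filled red points past an adjusted p of 0.05 and blue bars at the list medians. No transcription factor of the 9 is filled; 5 naive and stem-like memory genes are filled left of 0 and 4 effector transcription factors right of 0.

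Markers of other cell types were measured in the same libraries. Bulk RNA cannot tell fewer cells of a type from less RNA per cell. Summed CPM of all 14 B-cell markers was 695, 430 and 484 in the NKG2D+ libraries against 120, 318 and 263 in the others. All 14 had positive log2 fold changes, with a median of 1.45, and edgeR called 0 of them. Cd22 alone held 147, 200 and 207 against 58, 113 and 115 CPM. The difference varied by pair, with log2 ratios of the 14 at 1.34 to 3.95 in pair 1, -0.01 to 0.83 in pair 2 and 0.47 to 1.26 in pair 3. B cells also express Bach2, Foxp1, Foxo1, Ets1 and Bcl6. The 5 germinal centre B-cell markers summed to 18.5, 13.8 and 16.5 against 9.77, 10.3 and 10.3 CPM. Of these, 3 were under 1 CPM in every library, among them Gcet2 (Gcsam) and Rgs13, while S1pr2 had 17.2, 11.9 and 14.4 against 8.54, 8.15 and 8.34 CPM. For 5 markers of CD4 and regulatory T cells the sums were 136, 46.9 and 63.2 against 64.6, 74.4 and 64.1 CPM. These sums join genes of opposite direction, none of them past edgeR's threshold. Log2 fold changes were 3.44 for Cd40lg and 0.87 for Zbtb7b, but -1.81 for Foxp3, -1.25 for Ikzf2 and -0.07 for Cd4. Cd40lg had 47.7, 3.57 and 6.9 CPM in the NKG2D+ libraries. Of 6 immature thymocyte markers, 5 were under 1 CPM in every library, and the sums were 0.411 to 0.829 against 1.37 to 1.86 CPM. Dntt, the sixth, which encodes the polymerase that adds untemplated bases to antigen receptor genes, was called lower in NKG2D+ cells (log2 fold change -2.62, edgeR adjusted p = 0.0249, and 0.0537 with the replicate number as a block). The 12 myeloid markers summed to 94.9 to 144 against 77.7 to 82.9 CPM, and the 6 plasma cell markers to 41 to 84.9 against 36.1 to 39.1 CPM. The 5 gamma-delta and NKT cell markers measured summed to 65.8 to 110 against 35 to 41.7 CPM. Each of these sums came mostly from 1 gene. Cst3 had 107, 76.7 and 82.1 against 68, 69.4 and 63.8 CPM. Xbp1 had 77.2, 37.1 and 50.1 against 37.4, 32.3 and 32 CPM. Cd163l1 had 64, 109 and 66.5 against 41.1, 34.3 and 34.2 CPM. In each of these lists 3 markers were under 1 CPM in every library. The part of these cells in the levels of the 9 genes was not tested. Cd44, a gene of the sorting gate, was also highest in NKG2D+ library 1, at 430, 177 and 224 CPM against 137, 136 and 133 CPM (edgeR adjusted p = 0.13).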

How the data were processed

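For each library the authors deposited unnormalised counts of reads, listed by gene symbol. Per the submitters' processing notes, CASAVA 1.8.2, TopHat2 2.0.4 and mm9 were used, while the sources used here name no counting program, annotation or strand setting. Each file holds 23284 genes and 5 summary counts, left out here (multiply aligned reads made up 19.71% to 26.19% of all reads). The labelled kit does not mark strand, and GENCODE M21 puts a gene on the opposite strand of 8 of the 9 genes, whose reads cannot be told apart.

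Counts were tested in R 4.3.3 with edgeR 4.0.16 (quasi-likelihood F-test, TMM, robust, group as the only term; filterByExpr with a minimum count of 10 and total of 15), adjusted by Benjamini-Hochberg over 12951 genes. The standard error is the log2 fold change over the square root of F. The fit was run on simulated counts that held no mouse effect, so this does not test it on libraries that come in pairs. Libraries with 1 number were treated as 1 mouse, since the series describes 3 mice (their file labels also share a lane, which cannot be told apart from the mouse). Their deviations correlated with r = 0.21, 0.16 and 0.28 across genes. Alternatives were the replicate block, other scalings, no filter, DESeq2 1.42.0, limma-voom (limma 3.58.1) and leaving out libraries. Only the replicate block took the mouse number as a term. No library was a copy of another (chi-square over its degrees of freedom, 41.8 to 256 within groups). Exon lengths came from GENCODE M21. The genes and lists were chosen with earlier results of these data known. Of each list the text names up to 4 called genes by p, or the gene of smallest p; of the listed symbols, Trdc matched no gene. Some listed genes are not reported here by name.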

Additional observations from a re-analysis of the deposited data

How the results depend on the processing

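All 9 transcription factor genes kept the direction of their log2 fold change under the 15 alternatives. Of 135 such values, 122 stayed on their side of the threshold and 13 passed it. For the 6 genes whose groups did not overlap, leaving out libraries could hardly reverse the direction. The share of all tested genes that kept their direction was not computed. None of the 9 was called by limma-voom, by edgeR with the replicate number as a block, with DESeq2 size factors, with plain library totals or without the filter on low counts. DESeq2 called 5 lower, and leaving out 1 library or both libraries of a mouse gave 0 to 4 called lower (4 without NKG2D+ library 2, 2 without NKG2D+ library 1, 1 without both libraries numbered 1 or 2) and 0 higher. Over all genes, edgeR's 261 calls became 1442 by DESeq2, 83 by limma-voom and 68 with the replicate block, and 0 to 1312 with libraries left out (0 without both libraries numbered 3, where 971 had an unadjusted p under 0.05). The cause was not tested. With the block, adjusted p-values of the 9 genes were 0.0888 to 0.297. As paired differences over 3 mouse numbers, the ratio of Bcl6 to Prdm1 (-1.66) and that of Bach2 to Prdm1 (-2.56) had an exact permutation p of 0.25, the lowest that 3 pairs allow. They ran from -1.90 to -1.45 and from -3.04 to -2.04 with 1 library left out. Bcl6 and Myb, the least abundant, rested on 351 to 1175 counts a library.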
